A study of Mus musculus with 6 samples.

Results

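The p53 target genes described here are 10 genes that the transcription factor p53 is known to switch on. The members were chosen by gene symbol, and all 10 were found among the 56691 genes of the deposited table. RNA sequencing covered 6 libraries of the mouse macrophage line written RAW246.7 in the labels, of wild-type genotype. All cells, on both gels, had first been treated with LPS, the lipopolysaccharide of bacterial outer membranes that macrophages respond to. They were then kept for 24 h on an MSA-ZW hydrogel (3 libraries) or an MSA-DA hydrogel (3 libraries), and the comparison asks how the choice of gel changed these genes. The model is thus a single cell line grown on gels, there is no library without LPS or without a gel, and no label says whether the 3 libraries of a gel came from separate cultures. The p-values therefore measure only the spread between these libraries, which may be technical.

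The protein p53 is held at a low level by MDM2, a ubiquitin ligase that marks it for degradation. DNA damage and other stresses release p53, which then binds DNA as a tetramer and activates genes that stop the cell cycle, repair DNA, change metabolism or start cell death. Several of these targets act back on p53: MDM2 itself is the best known negative feedback loop. Among the members, Cdkn1a (p21, an inhibitor of cyclin-dependent kinases) halts the cell cycle. Mdm2, Ccng1 (cyclin G1, which recruits a phosphatase to MDM2) and Trp53inp1 (a nuclear protein that promotes p53 phosphorylation) act on p53 itself. Bax, Bbc3 (PUMA) and Pmaip1 (NOXA) are members of the BCL2 family that promote apoptosis at the mitochondrion. Phlda3 is a repressor of AKT kinase, Zmat3 an RNA-binding splicing regulator and Sesn1 (sestrin 1) an inhibitor of mTORC1 signalling.

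The DNA that p53 contacts consists of a pair of copies of a 10-base decamer, the p53 consensus decamer, with a short spacer between them. RefSeq promoter windows (build GRCm38.p6, 250 bases before and 50 bases after a gene start) were found for 7 of the 10 members, as 11 windows. The decamer consensus reads the same on both strands, and no other motif was searched. At least 1 exact decamer lay in 5 member windows, of 5 genes, against 8.36% of all 32851 windows. A pair of decamers with a spacer of at most 13 bases, the full response element, lay in 1 member window, against 0.0731% of all windows (24 windows). These 5 windows are shown because they hold the decamers. Cdkn1a, which holds the full element, did not pass the test of a difference between the gels. Of the genes with a single decamer, Mdm2 and Ccng1 passed, while Bax and Sesn1 did not. Pmaip1 and Zmat3, which also passed, and Trp53inp1, which did not, had no window to search. Each line gives the 250 bases before the start on the gene's strand, 5′ to 3′, with the decamers in capitals.
Cdkn1a, chr17:29090729-29090978, plus strand: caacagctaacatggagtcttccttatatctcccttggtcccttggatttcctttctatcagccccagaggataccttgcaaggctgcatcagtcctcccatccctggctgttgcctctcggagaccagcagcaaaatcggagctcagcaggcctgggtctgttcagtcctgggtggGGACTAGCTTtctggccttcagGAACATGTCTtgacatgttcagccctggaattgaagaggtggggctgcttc
Mdm2, chr10:117710759-117711008, minus strand: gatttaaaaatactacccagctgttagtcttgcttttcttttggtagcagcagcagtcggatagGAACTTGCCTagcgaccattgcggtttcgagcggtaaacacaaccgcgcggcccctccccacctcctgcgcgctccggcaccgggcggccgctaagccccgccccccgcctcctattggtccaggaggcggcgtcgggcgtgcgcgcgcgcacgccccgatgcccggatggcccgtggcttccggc
Ccng1, chr11:40755287-40755536, minus strand: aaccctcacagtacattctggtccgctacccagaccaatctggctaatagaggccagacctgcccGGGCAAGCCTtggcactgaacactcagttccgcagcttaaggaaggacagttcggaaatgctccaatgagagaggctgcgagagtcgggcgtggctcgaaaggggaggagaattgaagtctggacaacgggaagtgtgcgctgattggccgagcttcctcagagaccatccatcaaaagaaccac
Bax, chr7:45466899-45467148, minus strand: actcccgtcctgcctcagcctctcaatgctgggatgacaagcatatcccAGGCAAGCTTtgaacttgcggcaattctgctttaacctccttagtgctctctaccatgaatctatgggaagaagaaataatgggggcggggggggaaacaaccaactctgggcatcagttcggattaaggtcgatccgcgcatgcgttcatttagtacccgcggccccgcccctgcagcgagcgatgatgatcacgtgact
Sesn1, chr10:41887189-41887438, plus strand: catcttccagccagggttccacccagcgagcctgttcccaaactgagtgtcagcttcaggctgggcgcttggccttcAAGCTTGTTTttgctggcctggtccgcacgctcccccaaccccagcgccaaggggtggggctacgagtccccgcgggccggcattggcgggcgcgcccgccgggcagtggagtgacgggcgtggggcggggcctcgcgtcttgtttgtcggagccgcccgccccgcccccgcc
In the Cdkn1a window shown, the decamers began 73 and 51 bases before the gene start of that window, with a spacer of 12 bases. Only exact decamers were marked, so near matches stay in lower case, such as tgacatgttc directly after the second Cdkn1a decamer. The single decamer began 186 bases before the start in Mdm2, 185 in Ccng1, 201 in Bax and 173 in Sesn1. No decamer lay in the 3 windows of Bbc3, the window of Phlda3, or the further windows of Cdkn1a and Sesn1. A match describes letters only; binding of p53 was not measured, and p53 elements outside these windows were not searched.

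Count totals were 14374912 to 18346615 per library. Mitochondrial transcripts took 3.10% to 3.12% of counts on MSA-DA and 2.73% to 2.78% on MSA-ZW, and Rn18s (a ribosomal RNA) 0.132% to 0.142% and 0.238% to 0.449%. All 7 macrophage markers were detected, with a summed level of 2084 to 2121 FPKM (counts scaled to exonic length and library total) on MSA-DA and 2510 to 2556 on MSA-ZW; by edgeR's test at an adjusted p below 0.05, 3 of the 7 were called lower (Csf1r, Lyz2 and Fcgr1; 42.9%, against 6.50% of all tested genes) and 1 higher (Itgam; 14.3%, against 6.92%). Most of that sum was Lyz2, with a mean of 1339 FPKM on MSA-DA and 1743 on MSA-ZW. The fitted difference was above 0 for 4 of the 7 macrophage markers and below 0 for 3. The 12 markers of T cells, B cells, fibroblasts, epithelium and endothelium summed to 0.14 to 0.18 FPKM on MSA-DA and 0.19 to 0.42 on MSA-ZW. Cd3d, Epcam and Cdh1 were among those with no count in any library. In bulk RNA of a single cell line, fewer cells with a transcript and less of it per cell cannot be told apart. The part of these marker differences in the results was not tested.

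Compared per exonic length, the targets spanned a wide range of levels. Ccng1 was highest at a mean of 78.5 FPKM over the 6 libraries, followed by Bax at 71.9, Cdkn1a at 61.1 and Mdm2 at 53. The library ranges of Ccng1 and Bax overlapped, so those neighbours in the order did not differ beyond their spread over all libraries. On MSA-DA alone they were apart, with Ccng1 at 82.9 FPKM and Bax at 70.5. Pmaip1 (16 FPKM), Sesn1 (9.94) and Zmat3 (5.81) formed a middle tier with ranges that did not overlap. Phlda3 (2.04 FPKM), Trp53inp1 (1.75) and Bbc3 (1.37) were lowest, and the ranges of Phlda3 and Trp53inp1 overlapped. Genes of arrest (Cdkn1a), feedback (Mdm2, Ccng1) and death (Bax) were thus all among the high ones on both gels, and the death initiator Bbc3 was the lowest of the 10.

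All 10 targets had enough reads to be tested, among 12467 tested genes. By edgeR's quasi-likelihood test with Benjamini-Hochberg adjustment over all tested genes (threshold 0.05), 4 of the 10 rose on MSA-DA: Mdm2, Ccng1, Zmat3 and Pmaip1. The background was 6.92% of all tested genes called higher (863 genes), 6.50% called lower (810 genes) and 13.4% called in either direction. None of the 10 fell by that test, and at an unadjusted p below 0.05 the counts were 6 higher and 0 lower; DESeq2, which gave an adjusted p for 7 of the 10, also called none lower. Calls depend on read depth, and among the 7675 tested genes of 16 CPM (counts scaled to library size) or more 10.2% were called higher. In that range lie 7 of the targets, with all 4 calls. Within it the share called higher grew with level, at 6.31%, 12.5% and 21.6% in its low, middle and high parts. These parts hold 1, 1 and 2 of the 4 calls. The 10.2% is thus too low a background for Mdm2 and Ccng1, which lie in the high part. In 6 of the 10 targets the libraries did not overlap between the gels, all higher on MSA-DA, against 14.7% of all tested genes with MSA-DA higher and 28.4% in either direction. The median log2 difference of the 10 was 0.17, beside 0.00085 over all tested genes, and the called changes were small, from 1.12-fold to 1.16-fold. The targets were picked with earlier results of these data known, so the count describes them and is not independent evidence of a direction.

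**Figure D1:**
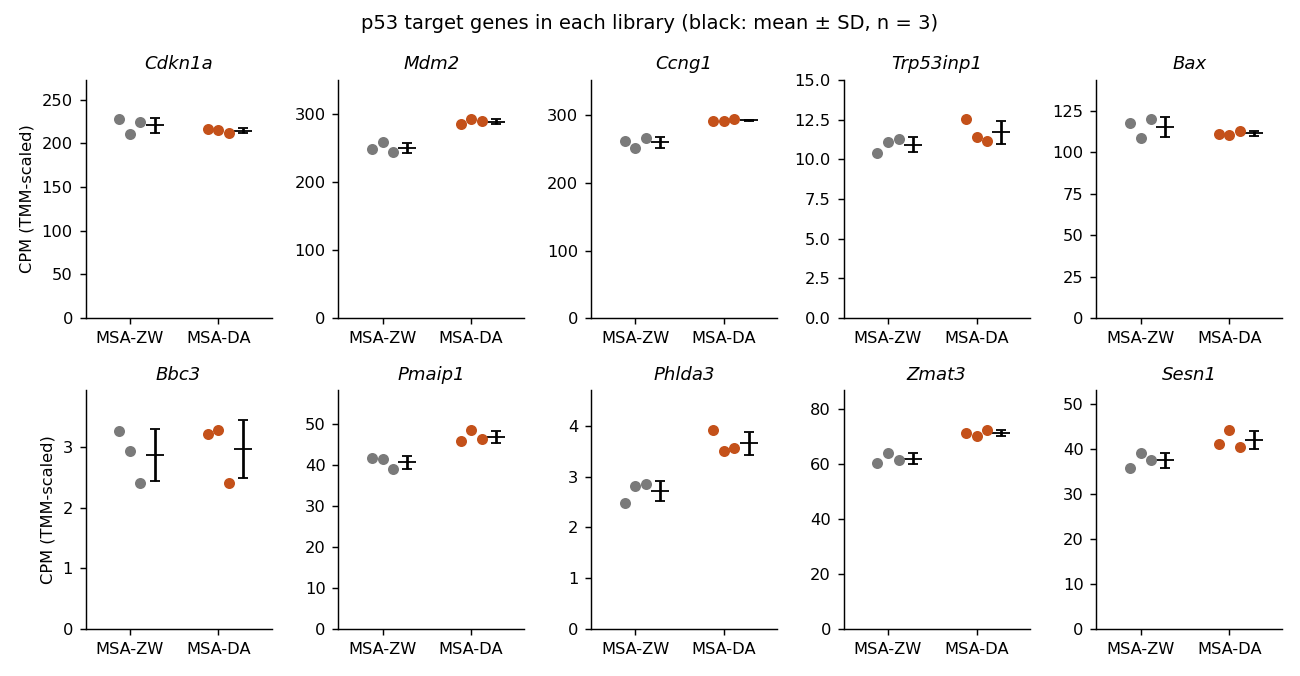
Level of each p53 target in each library, in CPM on TMM-scaled library sizes (y axis, a separate scale for each gene), for the 3 MSA-ZW and the 3 MSA-DA libraries; coloured points are libraries and the black marks beside them are the mean ± SD of 3 libraries. Mdm2, Ccng1, Zmat3, Pmaip1, Sesn1 and Phlda3 show MSA-DA points that all lie above the MSA-ZW points, while Cdkn1a, Bax, Bbc3 and Trp53inp1 overlap.

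The arrest gene Cdkn1a (ENSMUSG00000023067, chromosome 17, 29309950 to 29319701 in GRCm39) held 227, 210.4 and 224 CPM on MSA-ZW and 216, 215 and 211 CPM on MSA-DA. The libraries of the gels overlapped, and the MSA-DA libraries lay within the MSA-ZW range. The log2 difference (MSA-DA minus MSA-ZW) was -0.04 with a standard error (SE) of 0.032 and an edgeR adjusted p of 0.448 (214 ± 2.71 against 221 ± 8.92 CPM, SD, n = 3 each). The 95% interval ran from 0.929-fold to 1.02-fold, so a Cdkn1a rise of the size seen for Mdm2 lies outside it. The gene 1700023B13Rik overlaps Cdkn1a on the opposite strand, with 8 to 13 counts per library; whether the counting used strand is not known here.

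Among the genes that act back on p53, Mdm2 and Ccng1 rose and Trp53inp1 did not pass the test. Mdm2 (ENSMUSG00000020184, chromosome 10, 117524780 to 117546663) held 249, 258 and 244 CPM on MSA-ZW and 285, 292 and 289 CPM on MSA-DA. Every MSA-DA library lay above every MSA-ZW library. The rise was 1.15-fold (log2 0.21, SE 0.030, edgeR adjusted p 4.74e-06; 289 ± 3.30 against 250.4 ± 7.23 CPM, SD, n = 3 each). The Mdm2 call was lost in 1 of the 18 alternative fits, limma without a filter on low values (adjusted p 0.0627). Ccng1 (ENSMUSG00000020326, chromosome 11, 40639379 to 40646138) held 262, 251 and 267 CPM on MSA-ZW and 291, 292 and 294 CPM on MSA-DA. The MSA-DA libraries were nearly equal and all above the MSA-ZW ones. Ccng1 rose 1.12-fold (log2 0.17, SE 0.029, edgeR adjusted p 0.000101; 292 ± 1.31 against 260.0 ± 7.97 CPM, SD, n = 3 each). The cyclin G1 call was lost in the 3 limma fits on FPKM values that used no variance trend, with an adjusted p of 0.0629 to 0.0966.

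Trp53inp1 (ENSMUSG00000028211, chromosome 4, 11156431 to 11174379) was expressed at a much lower level, with 10.4, 11.1 and 11.3 CPM on MSA-ZW and 12.5, 11.4 and 11.2 CPM on MSA-DA. The libraries overlapped, with MSA-DA replicate 1 highest. Its log2 difference was 0.10 (SE 0.10, edgeR adjusted p 0.610; 11.7 ± 0.711 against 10.9 ± 0.471 CPM, SD, n = 3 each). The 95% interval of that difference, -0.11 to 0.30 on the log2 scale, holds 0 as well as rises of the size of Mdm2 and Ccng1, so the depth does not separate these cases.

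Of the death genes, the initiator Pmaip1 rose, while the effector Bax and the initiator Bbc3 did not pass the test. Pmaip1 (ENSMUSG00000024521), which encodes NOXA, a partner and inhibitor of the survival protein MCL1, held 41.7, 41.4 and 38.9 CPM on MSA-ZW and 45.8, 48.5 and 46.3 CPM on MSA-DA. The groups did not overlap. The rise was 1.16-fold (log2 0.21, SE 0.055, edgeR adjusted p 0.00841; 46.9 ± 1.43 against 40.7 ± 1.51 CPM, SD, n = 3 each). The Pmaip1 call was lost without MSA-DA replicate 2 (adjusted p 0.0846), with offsets for GC content and length (0.0688), and in the 3 limma fits without a variance trend (0.0645 to 0.109).

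Bax (ENSMUSG00000003873, chromosome 7, 45111121 to 45116322), which forms pores in the outer mitochondrial membrane, held 118, 109 and 119.8 CPM on MSA-ZW and 111, 110.4 and 113 CPM on MSA-DA. The MSA-DA libraries fell inside the MSA-ZW range. The log2 difference was -0.05 (SE 0.038, edgeR adjusted p 0.447; 112 ± 1.40 against 115 ± 5.87 CPM, SD, n = 3 each). Its 95% interval, -0.13 to 0.03 on the log2 scale, leaves out rises of the size of Pmaip1. Bbc3 (ENSMUSG00000002083, chromosome 7, 16042318 to 16052130) rested on only 38 to 60 counts per library, with 3.26, 2.94 and 2.41 CPM on MSA-ZW and 3.21, 3.28 and 2.41 CPM on MSA-DA. The groups overlapped almost fully. At a log2 difference of 0.06 (SE 0.208, edgeR adjusted p 0.908) its 95% interval was -0.37 to 0.48, and a difference of the size of the other death genes was not detectable at this depth.

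The remaining targets act on RNA processing and on growth signalling. Zmat3 (ENSMUSG00000027663, chromosome 3, 32388941 to 32420163) held 60.4, 64 and 61.3 CPM on MSA-ZW and 71.1, 70.2 and 72.3 CPM on MSA-DA. The gels were well apart. It rose 1.15-fold (log2 0.20, SE 0.044, edgeR adjusted p 0.00168; 71.2 ± 1.04 against 61.9 ± 1.89 CPM, SD, n = 3 each). All 4 limma fits missed the threshold for Zmat3, with an adjusted p of 0.0508 to 0.0761.

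Sesn1 (ENSMUSG00000038332, chromosome 10, 41685931 to 41784420) held 35.6, 38.9 and 37.6 CPM on MSA-ZW and 41.1, 44.1 and 40.4 CPM on MSA-DA. The groups did not overlap, although the highest MSA-ZW library lay close under the lowest MSA-DA one. The difference narrowly missed the threshold (log2 0.17, SE 0.059, edgeR adjusted p 0.0545; 41.9 ± 1.96 against 37.4 ± 1.68 CPM, SD, n = 3 each), and Sesn1 passed in none of the 18 alternative fits. Phlda3 (ENSMUSG00000041801, chromosome 1, 135693857 to 135696874) held 2.48, 2.82 and 2.85 CPM on MSA-ZW and 3.91, 3.50 and 3.55 CPM on MSA-DA, from 41 to 64 counts per library. Its groups were apart too, and its fitted difference was the largest of the 10 targets at 1.34-fold. With so few reads it was also imprecise (log2 0.42, SE 0.191, 95% interval 0.03 to 0.81), and the edgeR adjusted p was 0.154. In the limma fits on log2(FPKM + 1) and log2(FPKM + 0.1) Phlda3 passed, with an adjusted p of 0.0428 and 0.0490.

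**Figure D2:**
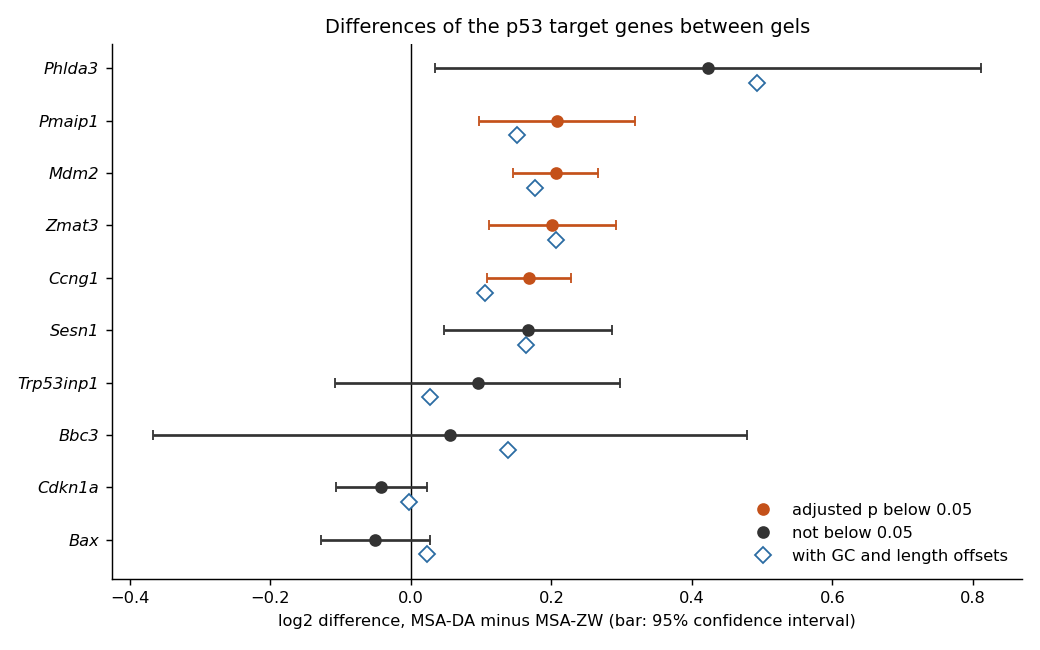
Log2 difference (MSA-DA minus MSA-ZW) of each p53 target from edgeR, on the x axis; filled circles are estimates (orange where the adjusted p was below 0.05), bars are 95% intervals and open diamonds are the estimates with GC and length offsets. The intervals of Mdm2, Ccng1, Zmat3, Pmaip1, Sesn1 and Phlda3 lie above 0, those of Cdkn1a, Bax, Bbc3 and Trp53inp1 cover it, and Bbc3 and Phlda3 have the widest.

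Across the whole table, the difference between the gels varied with the base composition of the transcript. Over the 12329 tested genes with a GC content from GENCODE transcripts (98.9% of those tested), the log2 difference correlated with GC content at a Spearman rho of -0.32, a correlation across genes that share the same libraries. The 4 targets that rose have a GC content of 40.8% (Ccng1), 42.1% (Pmaip1), 46.2% (Mdm2) and 47.6% (Zmat3), all below the median of 49.1% over tested genes. Cdkn1a at 54.4% and Bax at 63.5% lie above it, but so does Phlda3 at 62.6%, and Trp53inp1 has the lowest at 38.8%. With smooth offsets for GC content and length in the edgeR fit, Mdm2 (log2 0.18), Zmat3 (0.21, adjusted p 0.00116) and Ccng1 (0.11, adjusted p 0.0203) still passed, and Pmaip1 (0.15, adjusted p 0.0688) did not. Under those offsets Cdkn1a stood at -0.00245 and Bax at 0.02, both uncalled. Leaving out mitochondrial and ribosomal RNA genes, whose shares also differed between the gels, gave the same 4 calls and a median of 0.16.

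Because the targets share libraries, their proportions within a library can be compared without any scaling between libraries. Such ratios carry no correction for the trend with GC content. These 6 pairs were chosen after the values were seen. Per unit of exonic length, there were 0.921, 0.949 and 0.956 Mdm2 fragments for each Cdkn1a fragment on MSA-DA, and 0.765, 0.858 and 0.762 on MSA-ZW. The feedback ligase therefore took a larger share relative to the arrest gene in every MSA-DA library (mean ± SD of 0.942 ± 0.0184 against 0.795 ± 0.0548, n = 3 each, log2 0.25). For Ccng1 against Cdkn1a the ratio was 1.38 ± 0.0237 (SD, n = 3) on MSA-DA and 1.19 ± 0.0250 (SD, n = 3) on MSA-ZW. Mdm2 for each Trp53 fragment was 1.57 ± 0.0649 and 1.25 ± 0.0627.

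Among the death regulators the ratios went different ways. The initiator Pmaip1 against the effector Bax was 0.243 ± 0.00944 (SD, n = 3) on MSA-DA and 0.204 ± 0.0160 (SD, n = 3) on MSA-ZW. Pmaip1 against Mcl1, the survival protein that NOXA binds, was 0.119 ± 0.00337 and 0.101 ± 0.00608. Bax against Bcl2l1, which encodes the survival protein BCL-XL, was instead lower on MSA-DA, at 3.49 ± 0.0724 against 3.89 ± 0.128. By itself, neither Bax (edgeR adjusted p 0.447), Bcl2l1 (0.134) nor Mcl1 (0.554) passed the test of a difference between the gels. In all 6 pairs the groups did not overlap, and each exact two-sided permutation test gave p = 0.1 (0.1 adjusted over the 6), which is the smallest that 3 against 3 libraries allow. The pairs were chosen with the values known, and the adjustment does not cover that choice. Neither the lack of overlap nor these p-values is therefore independent evidence of a difference. These ratios show unequal change, not which gene of a pair moved. In each pair, the gene that gained relative to the other has the lower GC content. These were Mdm2 (46.2%) against Cdkn1a (54.4%) and Trp53 (53.3%), and Ccng1 (40.8%) against Cdkn1a. The others were Pmaip1 (42.1%) against Bax (63.5%) and Mcl1 (48.7%), and Bcl2l1 (55.9%) against Bax. The part of GC content in the ratios was not tested.

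**Figure D3:**
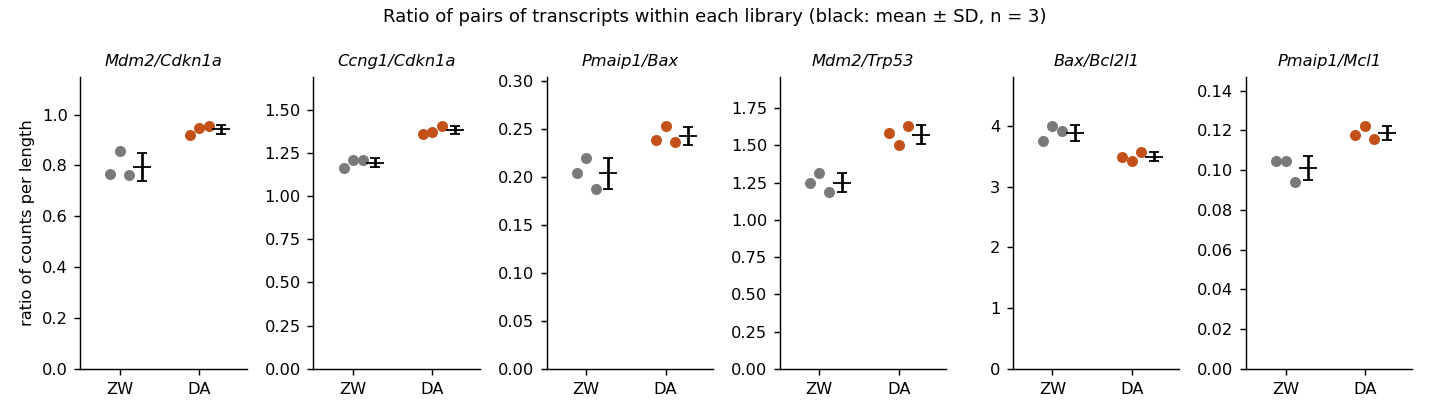
Ratio of length-normalised counts for 6 gene pairs in each library (y axis), for MSA-ZW and MSA-DA; coloured points are libraries and the black marks are the mean ± SD of 3 libraries. The ratios with Mdm2, Ccng1 or Pmaip1 on top are higher in all MSA-DA libraries, and Bax against Bcl2l1 is lower.

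Beyond the 10 targets, 41 of 47 other known p53 targets in the table could be tested, with 3 called higher (7.32%) and 1 lower (2.44%), against 6.92% and 6.50% of all tested genes. The wider target list was thus called higher at a share near the background, and its median log2 difference was 0.05. Plk2, a polo-like kinase of the cell cycle and the stress response, rose from 286 ± 4.62 to 365 ± 6.79 CPM (SD, n = 3 each; 1.28-fold, log2 0.35, SE 0.028, edgeR adjusted p 2.95e-11). Sat1, which acetylates polyamines for their breakdown, rose from 189.8 ± 4.73 to 241 ± 2.2 CPM (log2 0.34, SE 0.030, edgeR adjusted p 2.14e-10). Plk2 and Sat1 passed in all 18 alternative fits and changed by more than any called member of the 10.

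Mdm4, the MDM2 relative that blocks p53 as a transcription factor, rose 1.14-fold (98.1 ± 8.71 to 111 ± 4.08 CPM, SD, n = 3 each; log2 0.18, edgeR adjusted p 0.00523). That call was lost without MSA-ZW replicate 3 (0.0517) without MSA-DA replicate 1 (0.0601) and in the 4 limma fits (0.171 to 0.359). Gpx1, a peroxide-reducing enzyme, fell 1.15-fold (65.6 ± 5.13 to 57.5 ± 1.92 CPM; edgeR adjusted p 0.00884), and its call was lost without MSA-ZW replicate 3 (0.0737), without MSA-DA replicate 2 (0.0756), with GC and length offsets (0.0518) and in the 4 limma fits (0.0808 to 0.265). Ppm1d (WIP1), a phosphatase that removes activating marks from p53, did not pass (log2 0.01, SE 0.072, adjusted p 0.943), nor did the DNA damage gene Gadd45a (log2 0.13, SE 0.217, adjusted p 0.774). The most abundant uncalled targets were Pcna (621 ± 10.8 against 611 ± 8.79 CPM), Rps27l (118 ± 4.15 against 113 ± 3.91 CPM) and Bid (131 CPM on both gels).

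Some classical targets were too low to test. Sfn had 4 to 14 counts per library, the death receptor gene Fas 2 to 13, Gdf15 0 to 8 and Cpt1c 0 to 6. Rprm and Perp had no count in any library. These genes were therefore not measurable at this depth on either gel.

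**Figure D4:**
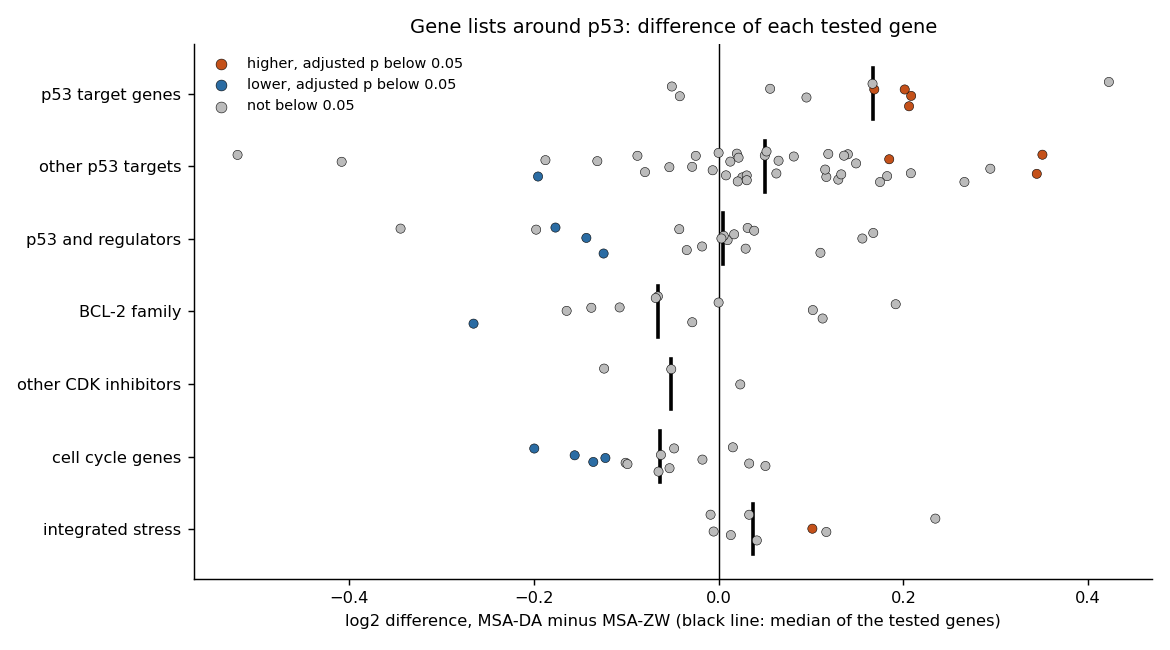
Log2 difference (MSA-DA minus MSA-ZW, x axis) of every tested gene in the 10 p53 targets and in 6 related gene lists (one row per list); each point is a gene, orange or blue where edgeR called it higher or lower (adjusted p below 0.05) and grey otherwise, and black lines are list medians. Plk2 and Sat1, at 0.35 and 0.34, are the highest called genes, and Bak1, at -0.27, the lowest.

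Of p53 itself and its regulators, 18 of 21 genes could be tested, with 0 called higher and 3 lower (16.7% against 6.50% of all tested genes) and a median of 0.0042; 2 were higher and 4 lower at an unadjusted p below 0.05, and DESeq2 also called 0 higher. The 3 called genes lie at 16 CPM or more, where 9.03% of tested genes were called lower. In the middle part of that range by level, which holds all 3, the share was 11.1%. Trp53, the gene of p53, held 159, 157 and 164 CPM on MSA-ZW and 144, 155 and 141 CPM on MSA-DA. The groups did not overlap, by a narrow gap, and the direction was opposite to that of Mdm2. The Trp53 transcript fell 1.09-fold (160 ± 3.58 to 146 ± 7.24 CPM, SD, n = 3 each; log2 -0.12, SE 0.035, edgeR adjusted p 0.0150). The call was lost without MSA-DA replicate 1 (0.0677), without MSA-DA replicate 3 (0.107), with GC and length offsets (0.0800) and in the 4 limma fits (0.0828 to 0.250).

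The kinase genes Atm and Hipk2, whose products phosphorylate p53, were also called lower, at 167 ± 3.07 against 185 ± 16 CPM (edgeR adjusted p 0.0146) and 177 ± 9.21 against 199.8 ± 22.5 CPM (0.0108). Their libraries overlapped between the gels. The Atm call was lost without MSA-ZW replicate 1 (0.0990), without MSA-ZW replicate 2 (0.122), without MSA-DA replicate 2 (0.0890) and in the 4 limma fits (0.192 to 0.426). The Hipk2 call was lost without MSA-ZW replicate 1 (0.0949) or 2 (0.110), without MSA-DA replicate 2 (0.0985) or 3 (0.0583), with DESeq2 (0.274) and in the 4 limma fits (0.227 to 0.488). The p53 relatives Trp63 and Trp73 had no count, and Cdkn2a, whose product ARF blocks MDM2, had 0 to 2. Protein levels and phosphorylation of p53 were not measured.

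Of the BCL2 family beyond the members, 11 of 15 genes could be tested; 0 were called higher and 1 lower (9.09%, near the 6.50% of all tested genes), with 1 and 2 at an unadjusted p below 0.05 and a median of -0.07; DESeq2 also called 0 higher. The call was Bak1, the partner of Bax in membrane pores, which fell 1.2-fold (216 ± 3.30 to 179.5 ± 2.83 CPM, SD, n = 3 each; log2 -0.27, SE 0.030, edgeR adjusted p 7.74e-08) and passed in all 18 alternative fits. Bcl2a1a, Bok, Bik and Hrk were not tested, with at most 8 counts per library. Of the other CDK inhibitors 3 of 6 could be tested, and 0 were called in either direction (0 higher and 1 lower at an unadjusted p below 0.05; DESeq2 called 0 as well). Cdkn1c and Cdkn2b had no count.

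Of 14 cell cycle genes that p53 and p21 are known to repress, 0 were called higher and 4 lower (28.6%, against 6.50% of all tested genes), with a median of -0.06; at an unadjusted p below 0.05 these counts were 0 and 5, and DESeq2 also called 0 higher. Mybl2, a subunit of the complex that activates mitotic genes, fell from 131 ± 1.1 to 114 ± 1.47 CPM (SD, n = 3 each; edgeR adjusted p 7.46e-05), and Mcm5, a helicase subunit of DNA replication, from 317 ± 5.31 to 291 ± 2.22 CPM (0.00254). Cdc20, an activator of the anaphase-promoting complex, fell from 75.1 ± 1.44 to 67.5 ± 2.09 CPM (0.0131) and the mitotic kinase gene Plk1 from 105 ± 3.05 to 95.5 ± 3.58 CPM (0.0167). In the 3 limma fits without a variance trend the calls of Mcm5 (0.0720 to 0.0870) and Cdc20 (0.0705 to 0.107) were lost, and that of Plk1 was lost in all 4 limma fits (0.0556 to 0.193). The Cdc20 call was also lost with DESeq2 (0.0575), with GC and length offsets (0.0912) and without MSA-DA replicate 2 (0.0701) or 3 (0.0577). The Plk1 call was also lost with DESeq2 (0.0608), with the offsets (0.151), without MSA-ZW replicate 1 (0.0587) and without MSA-DA replicate 2 (0.0879) or 3 (0.0880). These falls stood beside a Cdkn1a difference that did not pass the test. The part of p53 or p21 in them was not tested. All 14 cell cycle genes lie at 16 CPM or more, where 9.03% of tested genes were called lower. By level, that share was 5.85%, 11.1% and 17.8% in the low, middle and high parts of the range. Mcm5 lies in the high part, and Mybl2, Cdc20 and Plk1 lie in the middle part.

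Pmaip1 and other stress targets can also be activated by ATF4, the factor of the integrated stress response. Of 8 tested genes of that response, 1 was called higher (12.5%, against 6.92% of all tested genes) and 0 lower, with a median of 0.04; at an unadjusted p below 0.05 the counts were 2 and 0, and DESeq2 also called 0 lower. The call was Atf4 itself, at 252 ± 6.74 against 235 ± 8.42 CPM (SD, n = 3 each; log2 0.10, edgeR adjusted p 0.0273). It was lost with DESeq2 (0.0578), in the 4 limma fits (0.116 to 0.334) and without each library except MSA-ZW replicate 3 (0.0601 to 0.201). The part of ATF4 in the Pmaip1 rise was not tested.

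**Figure D5:**
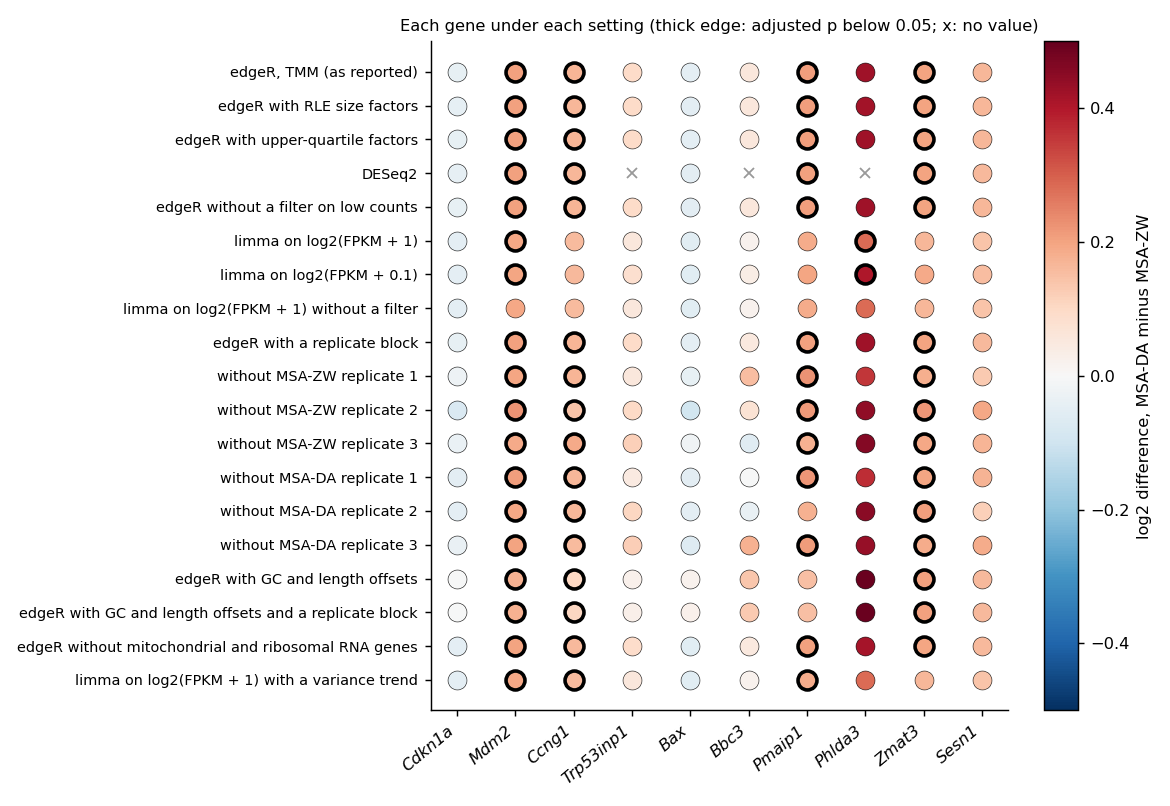
Log2 difference (MSA-DA minus MSA-ZW) of each p53 target under edgeR as reported and under each alternative processing (rows), as the colour of a circle (scale bar), with a thick edge where the adjusted p was below 0.05 and a cross where DESeq2 gave no adjusted p. Mdm2, Ccng1, Zmat3 and Pmaip1 stay above 0 in every setting plotted, Cdkn1a stays just below 0, and Bax crosses 0 with GC and length offsets.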

How the data were processed

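The 3 MSA-ZW and 3 MSA-DA libraries were grouped by their titles; RNA was total RNA taken with Trizol, per the labels' protocols. The submitters' processing notes name HISAT2 2.2.1 and cutadapt 1.9.1, bcl2fastq 2.20.0.422 and the build GRCm39. The counting tool, strand setting and annotation version were not given in the sources used here. Raw counts and FPKM values of 56691 genes were deposited by the authors, per the file headers. The counts entered the edgeR 4.0.16 quasi-likelihood test under R 4.3.3 (TMM factors, filterByExpr, no covariate), with Benjamini-Hochberg adjustment over 12467 genes; an SE is the log2 difference divided by the square root of F. The common biological coefficient of variation was 3.04%. Levels of a gene are in CPM after TMM scaling, and comparisons between genes use FPKM. Alternatives were DESeq2 1.42.0, other scaling factors, no filter, limma 3.58.1 on log2(FPKM + 1) or + 0.1 for genes of at least 1 FPKM in 3 libraries, a replicate block, each library left out, loess offsets for GC and length, and no mitochondrial or ribosomal RNA genes; limma with a variance trend was added after seeing the data. On the log2(FPKM + 1) scale changes of low genes are understated.

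The 10 members and the gene lists were chosen with earlier results of these data known. Named were the 10 members, Trp53, Mdm4, Ppm1d and Gadd45a, the called genes of each list (at most 6 by smallest p), the 3 uncalled other targets with the highest FPKM, and untested list genes. Tested on simulated data for this comparison (12343 genes), the edgeR fit found 18% of the genes set to differ 1.1-fold and 48% at 1.2-fold. It found 82% at 1.5-fold and again 82% at 2-fold, with 5 false calls in all. Among genes of at least 50 CPM it found 40% of 20 genes at 1.1-fold and 100% of 14 genes at 1.2-fold. Values of 2 genes of these lists are not reported here.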

Additional observations from a re-analysis of the deposited data

How the results depend on the processing

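The median log2 difference of the 10 targets stayed between 0.14 and 0.18 in all alternatives, and 10 targets were tested in each but DESeq2 (7). Depth limits Bbc3, Phlda3 and Trp53inp1, which have the widest intervals of the 10. Most of the changes are under 1.2-fold, where the fit misses part of the true changes. The causes of the shifts listed here were not tested.

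Of the 10 targets, 4 were called higher as reported; the count was 2 with limma on log2(FPKM + 1), 2 with log2(FPKM + 0.1), 0 with limma without a filter, and 3 to 4 with a library left out. Other targets called lower (1 as reported) were 0 in the 4 limma fits and with GC and length offsets, and 0 to 2 with a library left out; those called higher (3) were 2 in the 4 limma fits and 2 to 3 with a library left out. Regulators called lower (3) were 0 in the 4 limma fits and 1 to 4 with a library left out. BCL2 family genes called higher (0) were 1 with the offsets, with or without the block, and other CDK inhibitors called lower (0) were 0 to 1 with a library left out. Cell cycle genes called lower (4) were 2 with DESeq2, 1 in the 3 limma fits without a trend, and 2 to 4 with a library left out. Integrated stress genes called higher (1) were 0 with DESeq2 and in those limma fits, 2 with the offsets, with or without the block, and 0 to 2 with a library left out.

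KEGG pathway genes called higher (6) were 1, 1 and 0 in the limma fits without a trend (+ 1, + 0.1, no filter), 3 with the trend and 4 to 6 with a library left out; those called lower (7) were 2, 2 and 1, and 6 to 9. Over all genes, the count called higher (863) was 492 with DESeq2, 201, 159 and 85 in those limma fits, 416 with the trend and 474 to 819 with a library left out; the count called lower (810) was 457, 202, 160, 93, 490 and 527 to 835.

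Signs turned only in uncalled genes. Bax was 0.02 with the offsets (0.023 without and 0.025 with the block). Bbc3 was -0.061 without MSA-ZW replicate 3, -0.0021 without MSA-DA replicate 1 and -0.037 without MSA-DA replicate 2 (range with a library left out -0.061 to 0.18). Ppm1d was -0.0033 in limma (+ 1, no filter, trend), -0.0038 (+ 0.1), -0.034 and -0.0036 without MSA-ZW replicates 1 and 3, -0.077 without MSA-DA replicate 2 (range -0.077 to 0.070) and -0.0039 with offsets and block. Gadd45a was -0.0049 without MSA-DA replicate 3 (range -0.0049 to 0.36). Pcna was -0.014 with the offsets, with or without the block. Bid, at -3.5e-05 as reported, was 0.00047 with upper-quartile factors, 0.0071 without MSA-ZW replicate 2, 0.0050 without MSA-DA replicate 1 (range -0.015 to 0.0071), and 0.011 and 0.010 with the offsets without and with the block.

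Replicate numbers did not pair the libraries: same-numbered libraries correlated at 0.014, 0.0021 and -0.0053 in their deviations from the group means. With a replicate block, 1594 genes were called against 1673 without, and the 4 members called were the same (Mdm2, Ccng1, Zmat3 and Pmaip1).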

Other observations

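The deposited table also annotates genes to the KEGG p53 signalling pathway, a list used here only after the table had been seen and one that shares members with the 10 targets. Of its 76 genes, 60 were tested, with 6 called higher (10%) and 7 lower (11.7%), against 6.92% and 6.50% of all tested genes, and a median log2 difference of 0.015. Among the genes called lower, the cyclins Ccnd1 and Ccnd2, which start the cell cycle with their kinases, fell from 801 ± 5.69 to 727 ± 12.4 CPM (SD, n = 3 each; edgeR adjusted p 5.19e-05) and from 139 ± 2.66 to 124 ± 3.78 CPM (0.000754).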
